A study of Mus musculus with 16 samples.

Results

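The rows named for Tbc1d17, Dexi, Il4i1 and Ciita in a mouse bone count table are described here across 16 tibiae. They are 4 of 47517 rows. Tbc1d17 and Dexi were chosen by their measured counts, as leading rows with more fragments in NT3 than in Ctrl bone in both limbs, and Il4i1 and Ciita because these genes, known from antigen-presenting cells, lie on the opposite strand at the same places. NT3 to Ctrl differences of the 4 rows are therefore given as descriptions, with no test. All 4 rows passed the filter on low counts in every comparison.

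RNA came from tibial cortical bone of male mice, 16 weeks of age, labelled NT3-Cre+ (NT3, 4 mice) or Ctrl (4 mice). By its title the series concerns activation of NF-kB inducing kinase (NIK), the product of Map3k14, in the osteolineage. Axial compression was applied to the right tibia for 9 days at 1200 cycles a day and 4 Hz. Peak force was 10.0 N for NT3 and 8.7 N for Ctrl mice to reach -2000 microstrain in both, and the left tibia was not loaded. The groups were NT3 loaded, Ctrl loaded, NT3 non-loaded and Ctrl non-loaded, with 4 libraries each, taken 4 hours after the last bout from bone with the marrow spun out. Which allele the NT3 label stands for, what drives the Cre and what the Ctrl mice carry is not given in the sources used. Libraries held 758394 to 1064391 counted fragments, and only 15728 rows averaged at least 1.

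Antigen-presenting cells show peptides to T cells on class I and class II MHC molecules. Ciita is the coactivator that switches on class II genes; it binds no DNA itself and is recruited by RFX proteins, NF-Y and CREB. Il4i1 is a secreted amino acid oxidase of macrophages, dendritic cells and activated B cells that consumes aromatic amino acids. NIK drives the noncanonical NF-kB pathway, in which the Nfkb2 precursor is cleaved to a subunit that pairs with Relb. Tbc1d17 encodes an inactivator of Rab GTPases in membrane traffic, and Dexi a small protein first described as a transcript induced by dexamethasone.

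The 4 genes form pairs on opposite strands. On GRCm38, Tbc1d17 occupies chr7:44834623-44849079 on the minus strand and Il4i1 chr7:44816387-44840809 on the plus strand. Dexi occupies chr16:10502531-10543054 on the minus strand and Ciita chr16:10480059-10528418 on the plus strand. In GENCODE M21, 3423 of the 9726 exon bases of Tbc1d17 (35.2%) lie over exons of Il4i1 and cover 83.9% of the 4080 exon bases of Il4i1. A further 89 bases lie over exons of Akt1s1, a subunit of the mTORC1 kinase complex. Most of the overlap comes from 1 Tbc1d17 exon, chr7:44834623-44841420, the last of its transcript, with 6798 bases of which 189 are coding. All 8 exons of an Il4i1 transcript of 2048 bases, 1890 of them coding, lie inside that exon.

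Dexi and Ciita overlap much less. Of the 3353 exon bases of Dexi, 329 (9.81%) lie over exons of any Ciita transcript, 1425 over Ciita introns and 1599 outside Ciita. The Ciita mRNA of 6007 bases and 19 exons shares 111 bases (1.85%) with Dexi, all in the Dexi exon chr16:10502531-10503914. Another Dexi transcript ends 1788 bases beyond the annotated end of Ciita. Row lengths in the files equal the GENCODE exon lengths for Tbc1d17, Il4i1 and Dexi, but the Ciita row is 5254 bases long where GENCODE has 9535. Neither the strand setting of the counting nor its annotation release is known from the labels or file headers, so a row's fragments and those of the gene opposite cannot be told apart. The Mpo row held 1 to 10 fragments per library, and Gm11505, opposite Mpo, 1764 to 6732. The Cd247 row held 271 to 423, and Pou2f1, opposite Cd247, 5 to 30. Few fragments under a gene's name are therefore not read as low expression of that gene, and the strand counted was not tested.

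**Figure D1:**
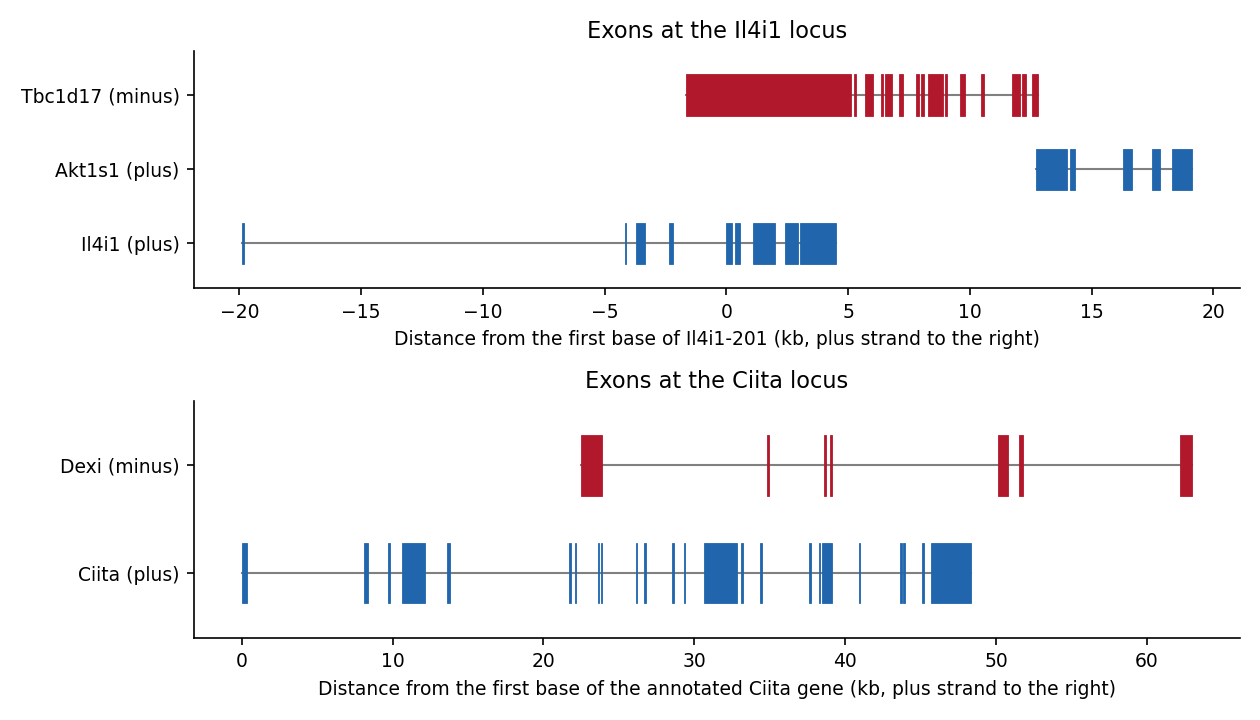
Annotated exons (boxes) and gene extents (lines) at the Il4i1 locus (top) and the Ciita locus (bottom), by distance in kb along the plus strand, with minus-strand genes in red and plus-strand genes in blue. The long Tbc1d17 exon spans 8 exons of an Il4i1 transcript, whereas Dexi exons meet few Ciita exons.

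Promoters of Il4i1 and Dexi are printed because the series concerns a kinase that acts through NF-kB. They come from RefSeq (GRCm38.p6), run from 250 bases before to 50 after the gene's start, and are written along the gene's strand. Tbc1d17 and Ciita were not matched there. The Il4i1 window, chr7:44836038-44836337 on the plus strand, lies inside the long Tbc1d17 exon, and the Dexi window is chr16:10543005-10543304 on the minus strand. Capitals mark matches on either strand to an NF-kB pattern (GGG and CC, with 5 free bases between) and to the PU.1 core GAGGAA.
Il4i1: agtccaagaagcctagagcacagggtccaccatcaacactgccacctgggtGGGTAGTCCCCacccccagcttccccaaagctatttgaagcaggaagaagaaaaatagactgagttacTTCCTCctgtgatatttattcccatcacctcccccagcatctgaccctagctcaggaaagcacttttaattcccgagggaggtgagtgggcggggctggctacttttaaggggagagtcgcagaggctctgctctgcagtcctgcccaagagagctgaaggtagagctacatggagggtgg
Dexi: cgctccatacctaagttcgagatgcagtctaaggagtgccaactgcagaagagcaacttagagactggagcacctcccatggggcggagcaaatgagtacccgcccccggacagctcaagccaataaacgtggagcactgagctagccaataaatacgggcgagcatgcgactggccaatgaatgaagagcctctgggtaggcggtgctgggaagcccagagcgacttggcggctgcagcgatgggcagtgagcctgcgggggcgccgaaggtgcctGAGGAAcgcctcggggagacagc
The Il4i1 window held overlapping NF-kB matches between bases -199 and -189 from the start and a PU.1 match on the other strand from -131 to -126. The Dexi window held a PU.1 match from base 27 to 32 and no NF-kB match. Patterns for STAT6 (TTC and GAA, 4 free bases between) and an IRF pair (GAAA and GAAA, 2 free bases between) were in neither window. Among 32851 RefSeq promoters, 50.8% held the NF-kB pattern, 28.3% PU.1, 6.95% STAT6 and 3.44% the IRF pair, and a match is a description of letters only.

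The Tbc1d17 row stood higher in every NT3 tibia than in any Ctrl tibia. In loaded tibiae of mice 1 to 4 it had 214, 246, 335 and 260.1 CPM (fragments scaled to a common library size by TMM) in NT3, against 79.5, 64.9, 49.3 and 68.7 CPM in Ctrl. In non-loaded tibiae it had 294, 318, 333 and 217 CPM in NT3, against 89.8, 56.4, 78.2 and 92.4 CPM in Ctrl. The genotypes did not overlap in either limb, and NT3 mouse 3 was the highest in both. Means were 264 ± 51.2 CPM in NT3 and 65.6 ± 12.5 CPM in Ctrl loaded tibiae, and 290.1 ± 51.6 CPM in NT3 and 79.2 ± 16.4 CPM in Ctrl non-loaded tibiae (SD, n = 4 each). The fitted log2 fold change, NT3 over Ctrl, was 2.00 (SE 0.17) in loaded and 1.86 (SE 0.18) in non-loaded tibiae, a fold of 3.99 and 3.62.

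The Il4i1 row lay at a like level in all 4 groups. In loaded tibiae of mice 1 to 4 it had 70.9, 86.4, 80.1 and 88.1 CPM in NT3, against 94.5, 85.9, 87.3 and 105 CPM in Ctrl. In non-loaded tibiae it had 75.8, 93.8, 91.0 and 85.6 CPM in NT3, against 77.3, 99.3, 75.1 and 82.6 CPM in Ctrl. The genotypes overlapped in both limbs. Its log2 fold change, NT3 over Ctrl, was -0.20 (SE 0.18, 95% interval -0.56 to 0.16) in loaded and 0.04 (SE 0.19, 95% interval -0.33 to 0.40) in non-loaded tibiae.

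The Dexi row was also higher in every NT3 tibia than in any Ctrl tibia. In loaded tibiae of mice 1 to 4 it had 176, 165, 184 and 222 CPM in NT3, against 61.1, 69.7, 51.9 and 60.01 CPM in Ctrl. In non-loaded tibiae it had 178, 167, 231 and 178 CPM in NT3, against 88.6, 69.98, 57.4 and 93.4 CPM in Ctrl. No NT3 library came near the Ctrl range, and the highest was mouse 4 among loaded and mouse 3 among non-loaded NT3 tibiae. Means were 187 ± 24.9 CPM in NT3 and 60.7 ± 7.29 CPM in Ctrl loaded tibiae, and 188 ± 28.6 CPM in NT3 and 77.3 ± 16.7 CPM in Ctrl non-loaded tibiae (SD, n = 4 each). The log2 fold change, NT3 over Ctrl, was 1.61 (SE 0.17) in loaded and 1.27 (SE 0.18) in non-loaded tibiae, a fold of 3.06 and 2.41.

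The Ciita row held few fragments and did not follow the Dexi row. In loaded tibiae of mice 1 to 4 it had 23, 22, 12 and 20 fragments in NT3, against 17, 58, 25 and 21 in Ctrl. In non-loaded tibiae it had 26, 24, 15 and 25 fragments in NT3, against 16, 19, 39 and 38 in Ctrl. The genotypes overlapped in both limbs, with the wider spread in Ctrl. The log2 fold change, NT3 over Ctrl, was -0.45 (SE 0.33, 95% interval -1.10 to 0.20) in loaded and -0.28 (SE 0.31, 95% interval -0.88 to 0.33) in non-loaded tibiae. Without Ctrl mouse 2, which had the most fragments of any loaded tibia, the loaded value was -0.03, and without Ctrl mouse 3 the non-loaded value was -0.08.

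**Figure D2:**
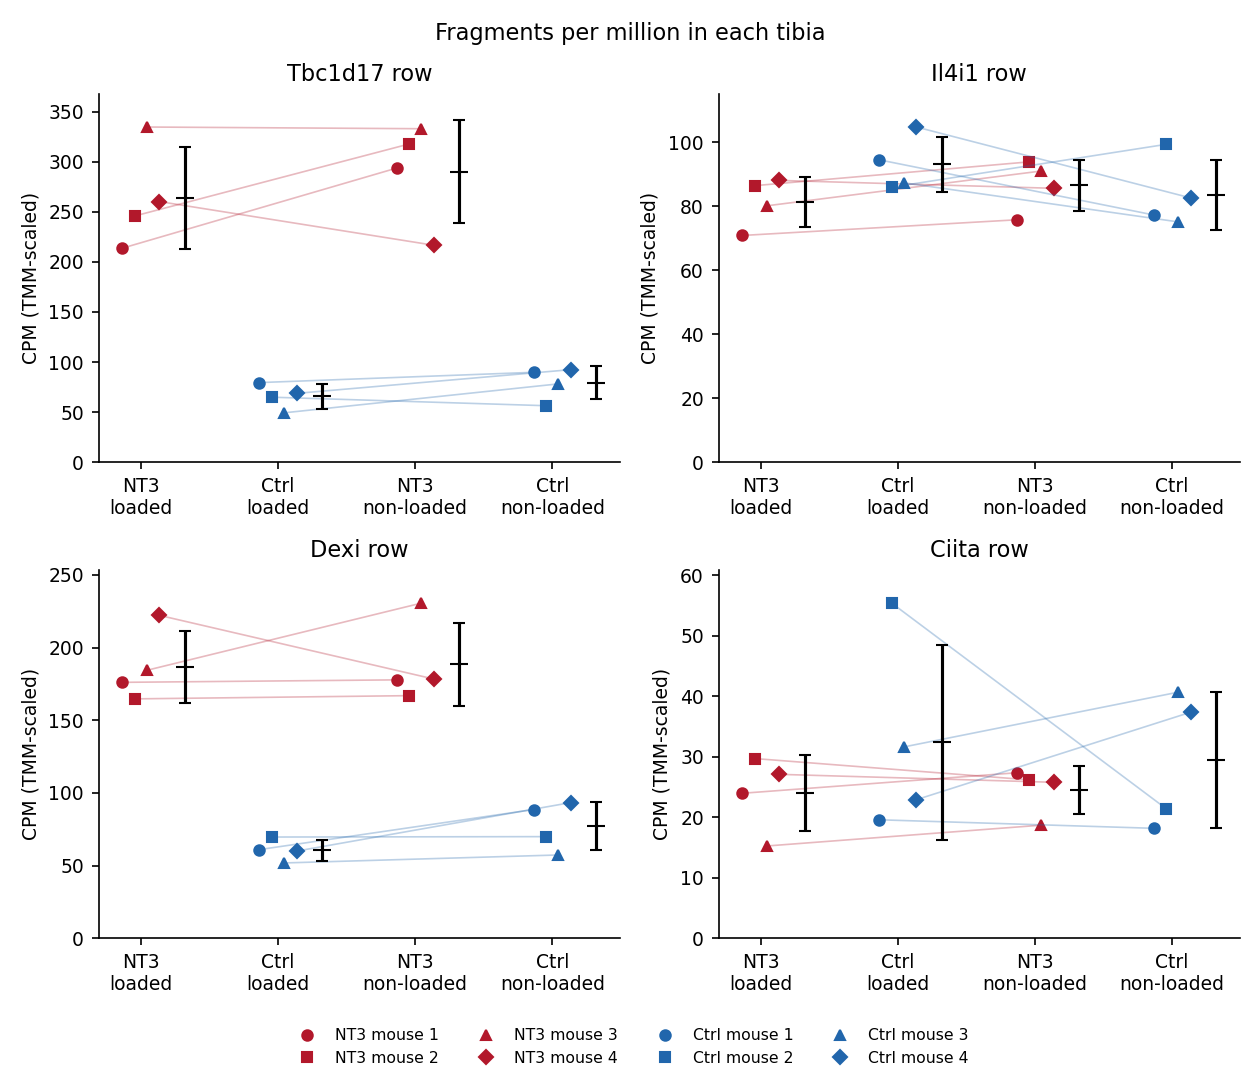
TMM-scaled CPM of each row in every tibia, with NT3 mice in red, Ctrl mice in blue, a symbol for each mouse, a line joining its limbs, and the mean and SD of 4 tibiae in black. Red and blue symbols do not overlap in either limb for the Tbc1d17 and Dexi rows and do for the Il4i1 and Ciita rows.

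Between NT3 and Ctrl, 161 of 6080 rows tested in loaded tibiae (2.65%; 1.32% higher and 1.33% lower in NT3) and 36 of 6220 in non-loaded tibiae (0.579%; 0.418% higher and 0.161% lower) had an edgeR adjusted p below 0.05, which is what called means here. Of 5779 rows tested in both limbs, 18 were called higher in both, and by the larger of their adjusted p-values the Tbc1d17 row ranked 1 and the Dexi row 5. The last rows inside were Nt5dc2, with log2 fold changes of 0.63 in loaded and 0.83 in non-loaded tibiae, and Il7, with 2.38 in loaded and 1.47 in non-loaded tibiae. The first outside were Oraov1, with 0.54 in loaded and 0.85 in non-loaded tibiae, and Gm16567, with 0.56 in loaded and 0.86 in non-loaded tibiae. These values chose the rows, and nothing is read from them.

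Per kilobase of the row length in the files, Dexi stood highest in NT3 bone. In loaded tibiae it had 55.7 ± 7.43 CPM per kb in NT3 and 18.1 ± 2.18 in Ctrl. Tbc1d17 had 27.1 ± 5.26 CPM per kb in NT3 and 6.75 ± 1.28 in Ctrl, Il4i1 19.9 ± 1.91 in NT3 and 22.8 ± 2.11 in Ctrl, and Ciita 4.57 ± 1.20 in NT3 and 6.16 ± 3.07 in Ctrl (SD, n = 4 each). On this scale the Tbc1d17 mean lay above the Il4i1 mean in loaded NT3 bone and below it in loaded Ctrl bone. The scale takes fragments to spread over the whole row, which was not tested. The order of the rows is therefore not read as an order of expression of the genes.

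The ratio of fragments between paired rows does not depend on library scaling. In loaded tibiae the Tbc1d17 row held 2.84 to 4.17 fragments per Il4i1 fragment in NT3, against 0.565 to 0.842 in Ctrl. In non-loaded tibiae it held 2.53 to 3.88 in NT3, against 0.568 to 1.16 in Ctrl. The Dexi to Ciita ratio was 5.54 to 12.1 in NT3, against 1.26 to 3.12 in Ctrl loaded tibiae, and 6.38 to 12.3 in NT3, against 1.41 to 4.88 in Ctrl non-loaded tibiae. Neither ratio overlapped between genotypes in either limb. The Tbc1d17 to Dexi ratio did, at 1.17 to 1.81 in NT3 and 0.931 to 1.30 in Ctrl loaded tibiae. Since Tbc1d17 and Dexi were chosen for more fragments in NT3, the separation of the ratios to Il4i1 and Ciita restates that choice.

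**Figure D3:**
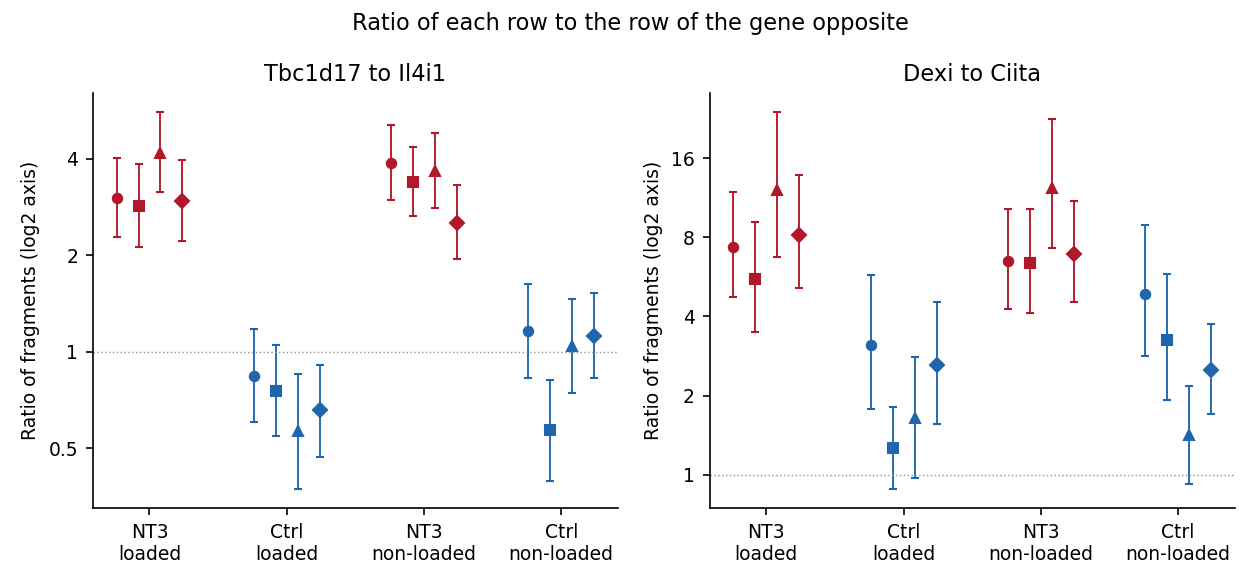
Ratio of fragments in the Tbc1d17 row to the Il4i1 row (left) and in the Dexi row to the Ciita row (right) in each tibia, on a log2 axis, with exact 95% intervals that cover counting error only, NT3 in red and Ctrl in blue. Every NT3 tibia lies above every Ctrl tibia of the same limb, which restates the choice of the Tbc1d17 and Dexi rows.

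Loading was not used to choose the rows and was tested with edgeR's quasi-likelihood test, with a block for mouse and Benjamini-Hochberg adjustment over 7192 rows. None of the 4 rows was called in NT3 mice, where 30 rows were (0.417%; 0.334% higher and 0.0834% lower in the loaded limb), or in Ctrl mice, where 293 were (4.07%; 3.07% higher and 1.0% lower). None of the 4 had an unadjusted p below 0.05 in either genotype. The smallest was that of Dexi in Ctrl mice, where the row was lower in the loaded limb of 4 of 4 mice with a log2 change of -0.34 (SE 0.17, edgeR adjusted p = 0.366). In NT3 mice it changed by -0.01 (SE 0.15, 95% interval -0.30 to 0.28, adjusted p = 0.998) and was lower in the loaded limb of 3 of 4.

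The Tbc1d17 row had a log2 change with loading of -0.14 (SE 0.14, adjusted p = 0.908) in NT3 and -0.26 (SE 0.17, adjusted p = 0.509) in Ctrl mice, and was lower in the loaded limb of 2 of 4 NT3 and 3 of 4 Ctrl mice. The Il4i1 row had -0.09 (SE 0.18, adjusted p = 0.972) in NT3 and 0.16 (SE 0.17, adjusted p = 0.749) in Ctrl mice. The Ciita row had -0.04 (SE 0.32, adjusted p = 0.994) in NT3 and 0.11 (SE 0.30, adjusted p = 0.916) in Ctrl mice, the Ctrl value being -0.35 without Ctrl mouse 2.

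Whether the genotype difference itself differed between limbs was tested as the difference of loading effects, NT3 minus Ctrl, for which 10 rows were called (0.139%), none of the 4 among them. It was 0.12 (SE 0.22, 95% interval -0.31 to 0.56, adjusted p = 0.973) for Tbc1d17 and 0.33 (SE 0.23, 95% interval -0.12 to 0.78, adjusted p = 0.896) for Dexi. It was -0.25 (SE 0.25, 95% interval -0.73 to 0.24, adjusted p = 0.942) for Il4i1 and -0.15 (SE 0.44, 95% interval -1.01 to 0.71, adjusted p = 0.989) for Ciita, and the Ciita value was 0.31 without Ctrl mouse 2. Since Tbc1d17 and Dexi were chosen as higher in NT3 in both limbs, rows whose difference varied by limb were less likely to be chosen. For Tbc1d17 and Dexi, the lack of a call is limited by that choice.

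**Figure D4:**
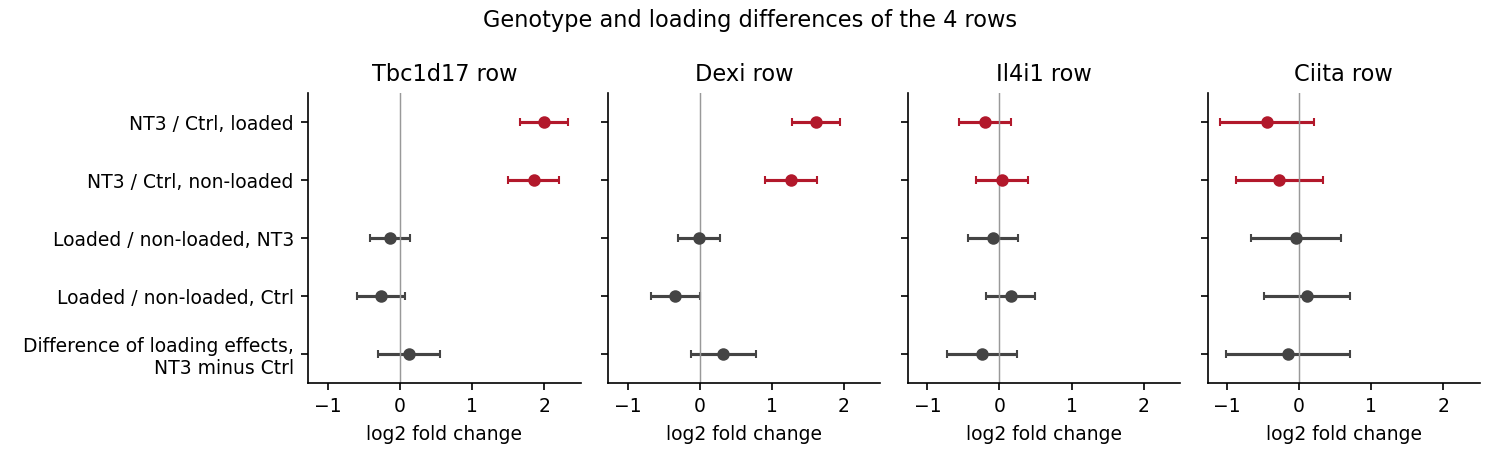
Fitted log2 fold changes of the 4 rows with 95% intervals, for NT3 over Ctrl in each limb (red, descriptions) and for loading in each genotype and the difference between these (grey, tested). The Tbc1d17 and Dexi rows lie between 1.27 and 2.00 for genotype, and no loading effect was called.

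By row name, no tested neighbouring gene was called between NT3 and Ctrl. Of 16 genes around Il4i1, 6 had enough fragments to test, and of 16 around Ciita 4 did. The Akt1s1 row, with 1 to 19 fragments per library, had a log2 fold change, NT3 over Ctrl, of 0.70 (SE 0.50, adjusted p = 0.612) in loaded and 0.84 (SE 0.49, adjusted p = 0.751) in non-loaded tibiae. The row of Nup62, a nuclear pore gene that shares 97 exon bases with Il4i1 on the same strand, had 0.42 (SE 0.42, adjusted p = 0.770) and 0.32 (SE 0.37, adjusted p = 0.930). Atf5, a stress-responsive transcription factor gene with 82 bases opposite Il4i1, had -0.34 (SE 0.44, adjusted p = 0.834) and 0.03 (SE 0.34, adjusted p = 0.994). The best covered row there, Ptov1 (226 to 414 fragments), had 0.17 (SE 0.14, adjusted p = 0.704) and -0.19 (SE 0.15, adjusted p = 0.863).

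At the Ciita locus the best covered row, Tvp23a (216 to 385 fragments), had 0.36 (SE 0.14, adjusted p = 0.203) in loaded and 0.44 (SE 0.14, adjusted p = 0.265) in non-loaded tibiae. The Tvp23a row lies opposite Nubp1, so fragments of this pair cannot be told apart. Socs1, a feedback inhibitor of interferon signalling, held 0 to 3 fragments and Clec16a 0 to 10. Matched by the gene opposite, 1 of 5 tested rows around Il4i1 was called higher in loaded tibiae (1.32% over all rows) and none of 4 around Ciita. It was Gm15396, opposite the protease gene Napsa, with 431 ± 74.9 CPM in NT3 and 262 ± 79.7 CPM in Ctrl (log2 0.72, SE 0.18, adjusted p = 0.0370), and the call was lost without NT3 mouse 1, 2 or 3 or Ctrl mouse 3 or 4, with adjusted p up to 0.0935. With loading, 2 neighbouring rows were called in Ctrl mice (4.07% over all rows) and none in NT3 mice (0.417%). Gm15396 was lower in the loaded limb (log2 -0.53, SE 0.13, adjusted p = 0.00766; lost without the block for mouse and without Ctrl mouse 1 or 2, with adjusted p up to 0.172). The row of Nubp1, an iron-sulphur cluster assembly gene near Ciita and opposite Tvp23a, was higher (log2 1.24, SE 0.37, adjusted p = 0.0423). That call was lost with DESeq2, with no filter on low counts and without the block for mouse. It was also lost without NT3 mouse 1 or Ctrl mouse 1, 2, 3 or 4, with adjusted p up to 0.217. Whether the fragments of this row came from Nubp1 or Tvp23a was not tested.

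Rows most like the Tbc1d17 row were ranked by root mean square difference of log2 CPM, centred on the row mean, over 16 libraries and 4113 rows. They were D030025P21Rik (0.252), Tesk1 (0.341), Dexi (0.341), Zmynd15 (0.367) and Gm29439 (0.396), where the median row stood at 1.04. Those most like Dexi were Gm29439 (0.229), Tesk1 (0.325), Psd (0.326), Tbc1d17 (0.341) and Nxpe4 (0.345), with a median of 0.807. Il4i1 ranked 2094 for Tbc1d17, and Ciita ranked 3599 for Dexi. Among these rows, D030025P21Rik lies opposite Ltbp2, a latent TGF-beta binding protein of the matrix, Tesk1 opposite Cd72, Zmynd15 opposite Cxcl16, Gm29439 opposite Cd22 and Psd opposite Nfkb2. All the near rows were among the 18 called higher in NT3 in both limbs. Centring on the row mean keeps the genotype difference that chose Tbc1d17 and Dexi. This likeness and the ranks of Il4i1 and Ciita therefore largely restate that choice.

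Centred on each group's mean, so that differences between groups drop out, the 2 rows were not among each other's nearest. The nearest to Tbc1d17 were A630052C17Rik (0.154), Gm10550 (0.160), Prickle3 (0.163), Gm26522 (0.163) and Fam104a (0.166), and Dexi ranked 179. The nearest to Dexi were Gm43335 (0.137), Gm26546 (0.147), Gm16153 (0.152), Gm17552 (0.156) and Ccdc157 (0.164), and Tbc1d17 ranked 425.

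Class II genes, which Ciita controls, were barely counted under their own names. Of 25, 5 had enough fragments to test, Rfx5, Rfxap, Rfxank, Nfyb and Creb1, all transcription factors of class II promoters, and edgeR called none in any comparison. The number at an unadjusted p below 0.05 was 2 for loaded tibiae, 1 for non-loaded tibiae, 0 for NT3 loading, 1 for Ctrl loading and 0 for the difference of loading effects. Over all rows tested, edgeR gave such a p for 808 of 6080 in loaded and 486 of 6220 in non-loaded tibiae. Of 7192 rows, 546 had it for NT3 loading, 1061 for Ctrl loading and 472 for the difference. The rows of the class II chains held 0 to 7 (H2-Aa), 0 to 10 (H2-Ab1) and 0 to 5 (H2-Eb1) fragments per library, and that of the invariant chain, Cd74, 0 to 7. Rfxank, an RFX subunit, had a log2 fold change, NT3 over Ctrl, of 0.60 (SE 0.18, adjusted p = 0.0756) in loaded and 0.47 (SE 0.22, adjusted p = 0.632) in non-loaded tibiae. The median of the 5 was -0.18 in loaded and -0.18 in non-loaded tibiae, beside 0.00 and -0.01 over all rows.

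Matched by the gene opposite, 1 of 4 tested class II rows rose in loaded NT3 bone and 0 in non-loaded NT3 bone. For this and the following lists, the share called higher over all rows was 1.32% in loaded and 0.418% in non-loaded tibiae. BC051537 lies opposite both H2-Pa, with which it shares the longer overlap, and H2-Oa, a subunit of a molecule that tempers class II peptide loading. It had 62.0 ± 14.6 CPM in NT3 and 26.7 ± 11.5 CPM in Ctrl loaded tibiae (log2 1.22, SE 0.28, adjusted p = 0.0103), and 54.2 ± 8.37 CPM in NT3 and 27.5 ± 8.82 CPM in Ctrl non-loaded tibiae (log2 0.96, SE 0.27, adjusted p = 0.125). The loaded call was lost without Ctrl mouse 2, where the adjusted p was 0.0586. The row opposite Rfx5, B230398E01Rik, had 0.20 (SE 0.14, adjusted p = 0.599) in loaded and 0.35 (SE 0.15, adjusted p = 0.549) in non-loaded tibiae.

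Of class I presentation, 2 of 5 tested opposite rows rose in loaded NT3 bone and 0 in non-loaded NT3 bone. Gm11131, opposite the class I-like gene H2-Q4, had 431 ± 60.1 CPM in NT3 and 261 ± 43.5 CPM in Ctrl loaded tibiae (log2 0.73, SE 0.14, adjusted p = 0.00173). Gm20496, opposite the peptide transporter gene Tap2 and the immunoproteasome gene Psmb8, had 628 ± 91.1 CPM in NT3 and 401 ± 74.2 CPM in Ctrl loaded tibiae (log2 0.64, SE 0.14, adjusted p = 0.00692). In non-loaded tibiae Gm11131 had 0.54 (SE 0.15, adjusted p = 0.142) and Gm20496 0.50 (SE 0.18, adjusted p = 0.392). By row name, 1 of 6 tested rows was called in loaded (2.65% over all rows) and none of 9 in non-loaded tibiae (0.579%). It was Erap1, a peptide-trimming aminopeptidase gene that lies opposite Cast. The row had 20.2 ± 6.50 CPM in NT3 and 46.0 ± 15.7 CPM in Ctrl loaded tibiae. Its log2 fold change was -1.17 (SE 0.30, adjusted p = 0.0262). The call was lost without NT3 mouse 2 or 4 or Ctrl mouse 2 or 3, with adjusted p up to 0.190. Whether the fragments of this row came from Erap1 or Cast was not tested.

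Enzymes and sensors of immune amino acid catabolism, the class of Il4i1, gave no edgeR call in any comparison. By row name, 4 of 19 were tested in loaded and 6 in non-loaded tibiae, and by the gene opposite 2 rows. The number at an unadjusted p below 0.05 was 1 for loaded tibiae, 3 for non-loaded tibiae, 0 for NT3 loading, 0 for Ctrl loading and 0 for the difference of loading effects by row name. Over all rows tested, edgeR gave such a p for 808 of 6080 in loaded and 486 of 6220 in non-loaded tibiae. The rows with most fragments were Arg2, an arginase, with 0.06 (SE 0.28, adjusted p = 0.973) in loaded and -0.56 (SE 0.26, adjusted p = 0.602) in non-loaded tibiae, and Tdo2, a tryptophan dioxygenase, with 0.71 (SE 0.30, adjusted p = 0.273) and 0.66 (SE 0.28, adjusted p = 0.544). Ido1, the interferon-induced enzyme of the same reaction, held no fragment in any library.

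Regulators known to act on Ciita or Il4i1 were called by the gene opposite only: 2 of 6 such rows rose in loaded NT3 bone and 0 in non-loaded NT3 bone. Both lie opposite Pax5, the B cell identity factor. 5730488B01Rik (log2 1.20, SE 0.28, adjusted p = 0.00929) was lost without NT3 mouse 4, where the adjusted p was 0.0696. Gm12462 (log2 1.02, SE 0.25, adjusted p = 0.0174) was lost without NT3 mouse 4 or Ctrl mouse 2 or 3, with adjusted p up to 0.109. None of 4 rows tested by name was called in either limb, Stat6, which transduces interleukin-4 signals, having -0.92 (SE 0.30, adjusted p = 0.107) in loaded and 0.01 (SE 0.31, adjusted p = 0.998) in non-loaded tibiae, and Irf1 0.17 (SE 0.25, adjusted p = 0.871) and -0.61 (SE 0.24, adjusted p = 0.482).

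Map3k14, the gene of the kinase in the series title, held 1 to 9 fragments per library, too few to test, so its own row gives no check of the labels. It averaged 6.46 ± 4.88 CPM in NT3 and 4.00 ± 2.27 CPM in Ctrl loaded tibiae, and 5.02 ± 2.83 CPM in NT3 and 2.77 ± 2.03 CPM in Ctrl non-loaded tibiae (SD, n = 4 each). Psd, an Arf6 exchange factor gene opposite Nfkb2, was the tested noncanonical row by the gene opposite. It had 212 ± 24.8 CPM in NT3 and 93.4 ± 5.33 CPM in Ctrl loaded tibiae (log2 1.18, SE 0.15, adjusted p = 4.08e-06), and 171 ± 13.8 CPM in NT3 and 96.0 ± 19.98 CPM in Ctrl non-loaded tibiae (log2 0.81, SE 0.18, adjusted p = 0.0193), the second call being lost without NT3 mouse 1 or 3 or Ctrl mouse 2 or 3, with adjusted p up to 0.142. The Nfkb2 row itself had 0.02 (SE 0.43, adjusted p = 0.995) in loaded and 0.26 (SE 0.36, adjusted p = 0.932) in non-loaded tibiae.

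Of canonical NF-kB genes and targets, 3 of 6 opposite rows rose in loaded and 2 in non-loaded NT3 bone, and none of 3 tested by name was called. Zmynd15, opposite the chemokine gene Cxcl16, had 221 ± 38.0 CPM in NT3 and 58.7 ± 15.6 CPM in Ctrl loaded tibiae (log2 1.91, SE 0.18, adjusted p = 1.14e-08), and 189 ± 61.0 CPM in NT3 and 54.7 ± 7.25 CPM in Ctrl non-loaded tibiae (log2 1.77, SE 0.21, adjusted p = 1.11e-05). Art3, opposite the interferon-induced chemokine gene Cxcl10, had 45.00 ± 14.4 CPM in NT3 and 6.61 ± 4.99 CPM in Ctrl loaded tibiae (log2 2.73, SE 0.40, adjusted p = 2.57e-05), and 40.3 ± 5.65 CPM in NT3 and 13.5 ± 5.33 CPM in Ctrl non-loaded tibiae (log2 1.56, SE 0.31, adjusted p = 0.0106). Its non-loaded call was lost without NT3 mouse 3 or Ctrl mouse 3, with adjusted p up to 0.0562. Gm16175, opposite Bcl3, a nuclear partner of NF-kB subunits, was called in loaded tibiae (log2 1.45, SE 0.30, adjusted p = 0.00336).

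Over the 6 pathway lists, 9 of 24 tested rows opposite a list gene (37.5%) were called in loaded and 3 of 24 (12.5%) in non-loaded tibiae, all higher in NT3. Their median log2 fold change was 0.49 in loaded and 0.34 in non-loaded tibiae. Over all rows tested, 2.65% were called in loaded and 0.579% in non-loaded tibiae. Since the lists were chosen with earlier results known, these shares are descriptions. With loading, none of 25 rows opposite a list gene was called in NT3 mice by edgeR, beside 0.417% over all rows. In Ctrl mice, beside 4.07% over all rows, 2 were called, both lower in the loaded limb. They were 5730488B01Rik (log2 -0.85, SE 0.25, adjusted p = 0.0401) and Gm43109, opposite the adhesion gene Vcam1 (log2 -0.52, SE 0.13, adjusted p = 0.0101). Neither was called without the block for mouse or with DESeq2, the first was lost without NT3 mouse 3 or Ctrl mouse 1, 3 or 4, with adjusted p up to 0.240, and the second without Ctrl mouse 1 or 3, with adjusted p up to 0.185.

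**Figure D5:**
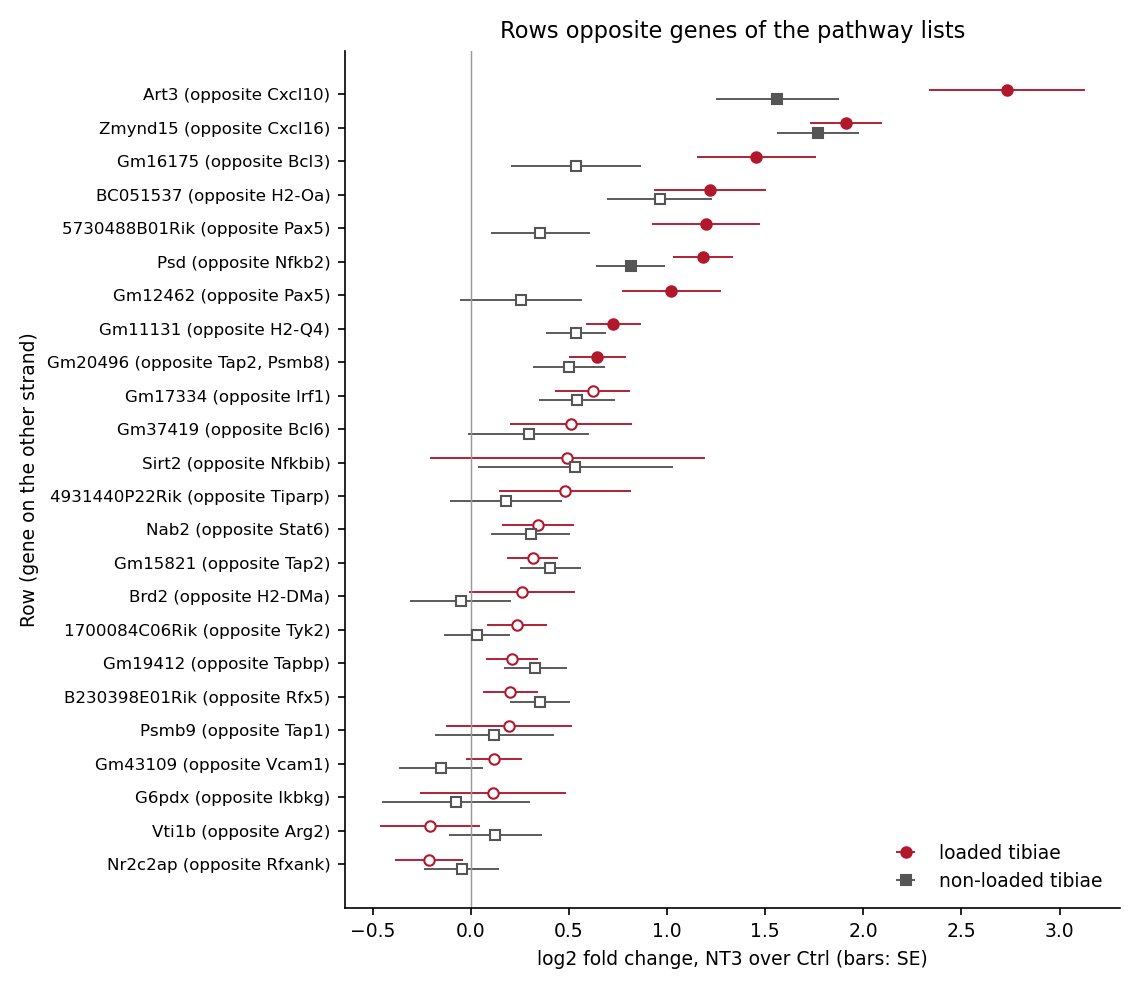
Log2 fold changes, NT3 over Ctrl, with SE as bars, of 24 rows that lie opposite a gene of the pathway lists, in loaded (red circles) and non-loaded (grey squares) tibiae, filled where called. The called rows, 9 in loaded and 3 in non-loaded tibiae, all lie right of 0.

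Of rows opposite B cell markers, 4 of 4 tested were called higher in loaded NT3 bone, both Pax5 rows among them, and 2 in non-loaded NT3 bone. Over all rows, 1.32% were called higher in loaded and 0.418% in non-loaded tibiae. This list too was chosen with earlier results known. In non-loaded tibiae the Pax5 rows were not called, 5730488B01Rik having 0.35 (SE 0.25) and Gm12462 0.26 (SE 0.31, adjusted p = 0.932). Tesk1, opposite the B cell coreceptor gene Cd72, had 205 ± 44.4 CPM in NT3 and 58.4 ± 18.9 CPM in Ctrl loaded tibiae (log2 1.81, SE 0.20, adjusted p = 3.03e-07), and 189 ± 38.4 CPM in NT3 and 89.5 ± 11.7 CPM in Ctrl non-loaded tibiae (log2 1.06, SE 0.18, adjusted p = 0.00123). Gm29439, opposite the B cell lectin gene Cd22, had 211 ± 53.9 CPM in NT3 and 63.5 ± 2.09 CPM in Ctrl loaded tibiae (log2 1.73, SE 0.18, adjusted p = 8.81e-08), and 218 ± 59.9 CPM in NT3 and 98.8 ± 30.4 CPM in Ctrl non-loaded tibiae (log2 1.12, SE 0.21, adjusted p = 0.0108), the second call being lost without NT3 mouse 3 or Ctrl mouse 2 or 3, with adjusted p up to 0.0608. With loading, 3 of the 4 were called lower in Ctrl mice (1.0% over all rows) and 0 in NT3 mice (0.0834%). They were Tesk1 (log2 -0.64, SE 0.17, adjusted p = 0.0202), Gm29439 (log2 -0.60, SE 0.17, adjusted p = 0.0288) and 5730488B01Rik, and none was called with DESeq2 or without the block for mouse. The Tbc1d17 (log2 -0.26, SE 0.17) and Dexi (log2 -0.34, SE 0.17) rows were also lower in loaded Ctrl tibiae but not called. Whether their loading effects differ from those of the called rows was not tested. The Tesk1 call was lost without Ctrl mouse 2 or 3, with adjusted p up to 0.191, and the Gm29439 call without Ctrl mouse 1 or 4, with adjusted p up to 0.273.

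The 6 rows opposite B cell markers summed to 416 to 675 CPM in NT3 and 160.4 to 217 CPM in Ctrl loaded tibiae, and to 446 to 696 CPM in NT3 and 199.8 to 380.5 CPM in Ctrl non-loaded tibiae. The 20 rows named for them summed to 392 to 439 CPM in NT3 and 367 to 444 CPM in Ctrl loaded tibiae, and to 428 to 489 CPM in NT3 and 330.3 to 386 CPM in Ctrl non-loaded tibiae. The best counted was the Cd72 row, with 276 ± 20.1 CPM in NT3 and 287 ± 44.6 CPM in Ctrl loaded tibiae, and 288 ± 33.5 CPM in NT3 and 186 ± 14.3 CPM in Ctrl non-loaded tibiae (log2 0.62, SE 0.15, adjusted p = 0.0460), a call lost without NT3 mouse 1, 2 or 3 or Ctrl mouse 2, 3 or 4, with adjusted p up to 0.206. The defining Ms4a1 and Cd79b rows held at most 6 and 4 fragments. The part of B cells in the Tbc1d17 and Dexi values was not tested, and in bulk bone fewer cells of a type and less RNA per cell cannot be told apart.

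The 18 macrophage rows by name summed to 443 to 519.9 CPM in NT3 and 392 to 478 CPM in Ctrl loaded tibiae, and to 488 to 576 CPM in NT3 and 440.5 to 507 CPM in Ctrl non-loaded tibiae. The 14 dendritic cell rows summed to 115 to 169.9 CPM in NT3 and 118 to 135 CPM in Ctrl loaded tibiae, and to 125 to 171 CPM in NT3 and 114 to 152 CPM in Ctrl non-loaded tibiae. No tested row of the macrophage, dendritic cell, osteoclast, erythroid and muscle lists was called by genotype, by name or by the gene opposite, but by name 1 of 12 osteoclast rows had enough fragments to test, and 3 to 4 rows of the macrophage, dendritic cell and erythroid lists. The 12 osteoclast rows summed to 56.7 to 72.2 CPM in NT3 and 29.5 to 50 CPM in Ctrl non-loaded tibiae, and to 37.5 to 49.96 CPM in NT3 and 29.1 to 42.6 CPM in Ctrl loaded tibiae. The best counted of them, Itgb3, held 4 to 25 fragments per library and the next, Ctsk, 0 to 18, so these sums rest on few fragments. The 16 T and NK cell rows by name lay higher in NT3 without overlap in both limbs, with 419 to 486 CPM in NT3 and 353 to 416 CPM in Ctrl loaded tibiae and 436 to 476 CPM in NT3 and 359.8 to 428 CPM in Ctrl non-loaded tibiae. That sum was carried by the Cd247 row, with 271 to 423 fragments per library, where Ptprcap held 6 to 20, Cd3d 0 to 6 and Cd3e 0 to 4. It does not speak for T and NK cell genes as a class. The 3 rows opposite T and NK cell genes summed to 29.2 to 61.0 CPM in NT3 and 13.9 to 21.9 CPM in Ctrl loaded tibiae, again without overlap. In non-loaded tibiae they overlapped, with 28.7 to 45.4 CPM in NT3 and 18.8 to 37.5 CPM in Ctrl. How often sums of other rows separate the genotypes in this way was not tested. The 15 neutrophil rows by name summed to 123 to 165 CPM in NT3 and 168 to 214 CPM in Ctrl loaded tibiae. The gap was carried by the Mmp8 row, with 64.2 ± 25.8 CPM in NT3 and 129 ± 22.2 CPM in Ctrl loaded tibiae. This sum does not speak for neutrophil genes as a class. The 2 rows opposite neutrophil genes overlapped, with 3314 to 4405 CPM in NT3 and 2172 to 4291 CPM in Ctrl loaded tibiae. The part of these cells in the Tbc1d17 and Dexi values was not tested. In loaded tibiae, 1 T cell row, Pou2f1 opposite Cd247, was called higher (log2 1.49, SE 0.42, adjusted p = 0.0476; lost without NT3 mouse 2 or 4 or Ctrl mouse 2, 3 or 4, with adjusted p up to 0.230), and 1 neutrophil row, Mmp8, lower (log2 -0.99, SE 0.22, adjusted p = 0.00626). Of the osteoblast and osteocyte rows matched by the gene opposite, 1 of 5 tested was called lower in loaded NT3 bone (1.33% over all rows). It was Abi3, opposite Phospho1 and Zfp652 (log2 -0.77, SE 0.19, adjusted p = 0.0261). The call was lost without NT3 mouse 3 or 4 or Ctrl mouse 1, 3 or 4, with adjusted p up to 0.197. Of osteocyte genes by name, Dmp1 (45 to 161) and Mepe (34 to 127) held fragments in every library, whereas Phex held 3 to 9 and Fgf23 0 to 1. The osteocalcin row Bglap held 0 to 4. The muscle row Ttn held 162 to 372, so these rows give no check of the bone label.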

How the data were processed

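Total RNA (mean integrity number 5.4) was depleted of rRNA and sequenced single-end, 75 bases a read, per the labels' protocols. The authors deposited raw fragment counts for 47517 gene-name rows per library, with row lengths. Per the submitters' processing notes, STAR 2.4.2a, featureCounts 1.4.6 of Subread, DESeq2 and mm10 were used.

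Counts were tested with edgeR 4.0.16 (R 4.3.3, limma 3.58.1): filterByExpr at a minimum count of 10, TMM, robust quasi-likelihood F test, Benjamini-Hochberg adjustment over all rows tested. Genotype fits held 8 libraries of 1 limb; loading and its difference were fitted on 16 libraries with a block for mouse, since the series' design pairs both limbs of a mouse (correlation of limb deviations 0.045 to 0.178). SE is the log2 fold change over the square root of F. CPM used full library totals, of which the Rn18s-rs5 row took 9.88%. Rows matched GENCODE M21 by symbol for 45250 names and by an older symbol for 618; opposite means at least 20 shared exon bases on the other strand. Alternatives were RLE size factors, DESeq2 1.42.0, no filter, a minimum count of 20, no ribosomal RNA and Gm10800 rows, each mouse left out, no replicate block and a 100-base overlap. The scripts were tested on simulated data.

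The 4 rows and the lists were chosen with earlier results of these data known. Named are the 4 rows, called rows of the lists, the best counted of a list, locus rows that touch an exon of the 4, and the 5 rows nearest in pattern. Rfxank, Stat6, Irf1, the class II chains and B230398E01Rik were named after their values were seen. Some items of the lists and motifs are not reported here.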

Additional observations from a re-analysis of the deposited data

Results flagged for a closer look

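Single libraries stood apart from the other 3 of their group in 4 of 120 groups of 4 tibiae, where the gap to the nearest library over the whole range passed Dixon's 95% critical value; chance gives about 1 in 20 groups. Among Ctrl loaded tibiae, mouse 1 had the highest value of the Pou2f1 row, opposite Cd247, with 14.98 CPM, against 6.33 to 7.64 CPM in the others (gap over range 0.848). Among NT3 non-loaded tibiae, mouse 3 had the highest value of the Gm16175 row, opposite Bcl3, with 39.9 CPM, against 23.1 to 25.8 CPM in the others (gap over range 0.843). Among Ctrl non-loaded tibiae, mouse 2 had the highest value of the Art3 row, opposite Cxcl10, with 21.4 CPM, against 9.83 to 11.5 CPM in the others (gap over range 0.859), and mouse 1 the highest of the Gm15396 row, opposite Napsa, with 554 CPM, against 308 to 328 CPM in the others (gap over range 0.921). No library of the Tbc1d17, Dexi, Il4i1 or Ciita rows stood apart by this measure.

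The loading effect of the Abi3 row, opposite the bone mineralisation gene Phospho1 and, over a longer stretch, Zfp652, differed between the genotypes, with 2417 ± 782 CPM in NT3 and 4110 ± 784 CPM in Ctrl loaded tibiae and 933 ± 346 CPM in NT3 and 765 ± 208 CPM in Ctrl non-loaded tibiae (SD, n = 4 each). The log2 change with loading was 1.39 (SE 0.11, adjusted p = 1.69e-12) in NT3 and 2.44 (SE 0.12, adjusted p = 1.04e-20) in Ctrl mice by edgeR, a difference of -1.06 (SE 0.16, adjusted p = 1.61e-04). The difference was not called with no replicate block, where 0 rows were.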

How the results depend on the processing

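Few fragments stand behind the Ciita and Akt1s1 values, and the class II chains had too few to test. In the Tbc1d17, Dexi, Il4i1 and Ciita rows, 168 tested values under the alternatives kept their side of the threshold, and the 104 NT3 over Ctrl values, which were given no test, moved by less than the SD between replicates. Of values for called rows of the lists, 332 kept the call and 78 lost it, with 0 reversed.

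Between NT3 and Ctrl, 36 rows were called in non-loaded tibiae, 71 with no filter on low counts and 12 to 77 with 1 mouse left out (12 without Ctrl mouse 2, 14 without NT3 mouse 3, 20 without Ctrl mouse 3 and 77 without Ctrl mouse 1). In loaded tibiae 161 were called, 158 to 177 under other settings and no fewer than 119 with 1 mouse left out. For loading in NT3 mice, 30 were called, 19 by DESeq2, 5 with no replicate block for mouse and 17 to 44 with 1 mouse left out (17 without NT3 mouse 1). In Ctrl mice, 293 were called, 169 by DESeq2, 171 with no replicate block and 163 to 325 with 1 mouse left out (163 without Ctrl mouse 2 and 188 without Ctrl mouse 3). For the difference of loading effects, 10 were called, 17 with no filter, 0 by edgeR with no replicate block and 7 to 14 with 1 mouse left out. Rows opposite pathway genes called for loading in Ctrl mice numbered 2, and 1 where at least 100 bases had to overlap. The causes of these shifts were not tested. Dropping the block changed no call of the 4 rows.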
